A study of Mus musculus with 12 samples.

Results

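The comparison described here set mouse embryonic stem cells lacking Dppa2 and Dppa4 (Dppa2/4 KO) against the parental cells they are titled after, and its members are 6 of the 12 arrays of the series, chosen by sample title. The groups compared were 3 arrays of Dppa2/4 KO cells without any re-introduced protein and 3 arrays of parental cells. The remaining arrays were KO cells transfected with wild-type Dppa2/4-GFP (3 arrays) and KO cells transfected with mutant Dppa2/4-GFP (3 arrays). The series describes the mutant as SUMO deficient, and transfected cells were sorted for GFP. The remaining arrays entered only the estimate of spread and, where a gene had several probe sets, the choice of 1. Cells of all 4 groups carry the same reporter, in which the promoter of the endogenous retrovirus MERVL drives the red fluorescent protein tdTomato. The labels describe culture on gelatin in a serum-replacement medium containing leukaemia inhibitory factor (LIF), which holds mouse embryonic stem cells in the undifferentiated state. The genotype field of the labels names the reporter alone for KO and parental samples, so the knockout is known from the titles. Whether the KO line is 1 clone, and whether KO and parental cells also went through transfection or sorting, the sources used here do not say. The arrays are called biological replicates and no more is said of their origin, so the p-values measure the spread between these samples, and 3 arrays a group limit the precision.

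Dppa2 and Dppa4 are small nuclear proteins that form a pair on chromatin and are found in pluripotent cells and the germ line. In mouse embryonic stem cells they are known to bind gene promoters rich in CpG dinucleotides, to keep a set of developmental and germline promoters free of DNA methylation, and to act upstream of Dux, the transcription factor that turns on the genes of the 2-cell embryo. Cultures of embryonic stem cells hold a small, changing fraction of cells in that 2-cell-like state, marked by MERVL and by the Zscan4 genes. An array of a whole culture reports the sum over all cells, so fewer cells of a type and less RNA per cell cannot be told apart in any value below.

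Levels are log2 array signals, and each of 22180 genes was represented by 1 probe set. A difference is the mean log2 level of KO arrays minus that of parental arrays, and it was tested with limma at a Benjamini-Hochberg adjusted p of 0.05 over all 22180 genes. The 7 embryonic stem cell markers Pou5f1, Sox2, Nanog, Zfp42, Esrrb, Klf4 and Tfcp2l1 lay between 6.52 and 10.72 in KO cells and between 6.28 and 10.68 in parental cells, against a median over all genes of 4.3 in KO cells and 4.33 in parental cells. The eighth marker, Dppa5a, had a probe set near the array's median, at 4.25 to 4.39 in KO cells and 3.82 to 4.25 in parental cells. None of these 8 markers passed limma's threshold, and 2 of them, Klf4 and Tfcp2l1, were higher at an unadjusted p under 0.05. Across all genes the correlation of 2 arrays was between 0.9865 and 0.9923 within a group, and between 0.9907 and 0.9914 for KO and parental arrays with the same replicate number. The labels do not say what a replicate number stands for. Deviations from the group means correlated at 0.356, 0.153 and 0.417 for same-numbered KO and parental arrays, and at -0.351 to 0.042 for arrays with different numbers. The deviations of a gene cancel within each group, so the low values for different numbers largely follow from the positive ones. The main fit did not pair the arrays. Because same-numbered arrays deviated together, a further fit took the number as a block, and its results are given where they change a call.

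The targeted genes came first. Dppa2 RNA was lower in KO cells but not lost, with log2 levels of 8.13, 8.69 and 8.63 on the 3 KO arrays, against 9.35, 9.81 and 10.17 on the 3 parental arrays. Every KO array lay below every parental array, yet the KO signal was still far above the KO median over all genes of 4.3. The difference was -1.29 ± 0.21 (SE), a 2.45-fold lower signal in KO cells (limma adjusted p = 0.0259). Dppa4, the neighbouring gene on chromosome 16, had levels of 7.92, 7.63 and 7.31 in KO cells and 8.24, 8.58 and 8.56 in parental cells. These groups did not overlap either, and the difference of -0.84 ± 0.18 did not pass the threshold (limma adjusted p = 0.102; 0.0726 with the replicate block). Where the probes lie relative to the deleted stretch is unknown here, so a remaining signal neither checks nor contradicts the labels. Of the 5 measured genes of the Dppa family Dppa2 was the 1 that passed, and Dppa3, a maternal factor of the early embryo, differed by -0.73 (adjusted p = 0.41). The call for Dppa2 was lost without any one of KO 1, KO 2, KO 3, parental 2 or parental 3, with adjusted p of 0.1115, 0.068, 0.0669, 0.1312 and 0.1391.

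Loss of Dppa2/4 went with lower signals far more than with higher ones. In KO cells 45 genes fell, which is 0.203% of the genes tested, and 8 rose, which is 0.0361%, so that 53 genes (0.239%) changed in all. At least a 2-fold change besides the test was met by 27 lower genes (0.122%) and 2 higher genes (0.00902%). Without regard to p, a difference at or below -1 was found for 56 genes (0.252%), and at or above 1 for 6 genes (0.0271%). The excess of falls was a matter of the tail, since the median difference over all genes was 0.0008 and 49.8% of genes had a negative difference. The 1st and 99th percentiles of the differences were -0.63 and 0.50.

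**Figure D1:**
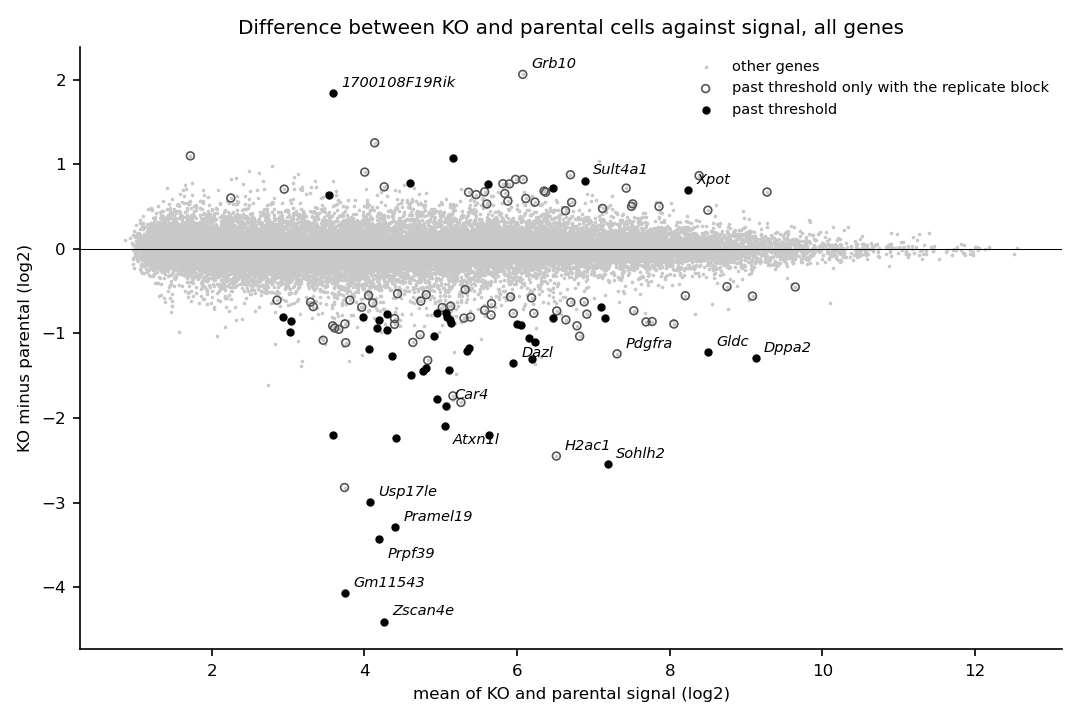
Each point is 1 of 22180 genes, with the mean log2 signal over the 6 KO and parental arrays on the x axis and the log2 difference, KO minus parental, on the y axis, with filled black points for genes past the threshold and open circles for those past it only with the replicate number as a block. The 45 lower genes reach -4.41 (Zscan4e), whereas the highest of the 8 higher genes lies at 1.84 (1700108F19Rik).

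In parental cells the genes that fell mostly lay above the median gene. Their parental means ran from 3.33 to 9.77 with a median of 5.78, against 4.33 over all genes. Their KO means ran from 1.71 to 8.48 with a median of 4.15, against 4.3 over all genes. All 45 had every KO array below every parental array, as did 1514 of all genes (6.83%), and all 8 higher genes had every KO array above every parental array, as did 1356 of all genes (6.11%). With the replicate number as a block the counts were 97 lower genes (0.437%) and 40 higher genes (0.18%), 137 genes (0.618%) in all, and these included 44 of the 45 and 8 of the 8. Leaving out any 1 array lowered both counts: 22 lower and 3 higher genes passed without KO 1, 18 and 1 without KO 2, 29 and 2 without KO 3, 29 and 1 without parental 1, 19 and 0 without parental 2, and 21 and 3 without parental 3. Of the 45 lower genes, 16 passed in all 6 of these fits, 18 in 1 to 5 of them and 11 in none.

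Among the largest falls were 4 genes of the 2-cell-like program. Zscan4e belongs to a cluster of zinc finger genes of the 2-cell embryo that are linked to telomere upkeep in embryonic stem cells. Its levels were 2.40, 1.87 and 1.90 on KO arrays, against 5.59, 7.06 and 6.74 on parental arrays. The groups lay more than 3 log2 units apart, with the KO arrays near the low end of the signal range. The difference was -4.41 ± 0.45 (SE; limma adjusted p = 0.000747), and the call held without any 1 array. No detection call was available, so such low KO signals cannot be set apart from background and no fold is given for them. Pramel19, of a large family of leucine-rich repeat proteins active in oocytes and early embryos, had levels of 2.42, 2.91 and 2.95 in KO cells and 5.29, 6.85 and 6.02 in parental cells. The groups did not overlap and the difference was -3.29 (adjusted p = 0.00988), but the adjusted p was 0.0515 without KO 1 and 0.0505 without parental 2. Usp17le, of a family of deubiquitinating enzymes, had levels of 2.04, 3.09 and 2.61 in KO cells and 5.0, 6.02 and 5.70 in parental cells. These did not overlap, the difference was -2.99 ± 0.32 (adjusted p = 0.00102), and it held without any 1 array. Gm5662, a predicted gene, had levels of 2.93, 2.58 and 1.95 in KO cells and 4.24, 5.07 and 4.76 in parental cells. Its call (-2.20, adjusted p = 0.0449) was lost without each of the 6 arrays in turn, at adjusted p of 0.0732 to 0.1917, and its other probe set differed by -0.70.

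The gene lists here and below were chosen with earlier results of these data known, so their counts are no independent support. Of 39 measured members of the 2-cell-like list, 4 fell and 0 rose in limma's test, against 0.203% of all genes lower. With the replicate block 7 fell, against 0.437%. At an unadjusted p under 0.05, 16 were lower and 1 was higher, where 3.94% of all genes were lower and 3% higher. The list's median difference was -0.65, against 0.0008 over all genes, and 34 of its members had a negative difference. In 20 of the 39 every KO array lay below every parental array, as in 6.83% of all genes. Duxf3, the Dux gene measured in the list, differed by -0.29 and did not pass (limma adjusted p = 0.97; 0.733 with the replicate block). The members that passed only with the block were Zscan4b (-2.82, block-adjusted p = 0.0297), Zscan4c (-1.81, 0.0161) and Gm2022 (-1.74, 0.00372). Zscan4b levels were 2.40, 2.36 and 2.23 in KO cells and 4.52, 5.98 and 4.96 in parental cells. Here the KO arrays lay close together and the parental arrays spread widely. Gm2046, a predicted gene outside the list, had 3.16, 2.79 and 3.91 in KO cells and 4.69, 6.14 and 5.75 in parental cells. Its groups did not overlap (difference -2.24 ± 0.40, adjusted p = 0.0464), and the adjusted p was 0.2157 without KO 2, 0.1756 without KO 1, 0.1864 without parental 3 and 0.197 without parental 2. Members of these families are near copies of one another, so a probe set named for one may also read others.

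Summed on the linear scale, the 2-cell-like list gave 591 to 686 signal units on KO arrays and 930 to 1451 on parental arrays. Without Zfp809, its brightest member, the list gave 393 to 473 on KO arrays and 741 to 1259 on parental arrays. Marker lists of other cell types were summed in the same way. The 24 measured primitive endoderm markers gave 1095 to 1373 units in KO cells and 1560 to 2128 in parental cells, and without Gata6, their brightest member, 830 to 925 in KO cells and 1095 to 1573 in parental cells. The 21 trophectoderm markers gave 1358 to 1574 in KO cells and 1587 to 1842 in parental cells. Without Cited2, their brightest member, they gave 863 to 986 in KO cells and 990 to 1160 in parental cells. The 22 fibroblast markers gave 1145 to 1334 in KO cells and 1417 to 1586 in parental cells, but without Vim, which alone gave 620 to 782 in KO cells and 809 to 1070 in parental cells, they overlapped at 484 to 553 in KO cells and 516 to 608 in parental cells. Sums overlapped for the 23 mesoderm markers (652 to 758 in KO cells, 665 to 828 in parental cells), the 22 neuroectoderm markers (637 to 715 in KO cells, 650 to 726 in parental cells) and the 18 blood cell markers (348 to 602 in KO cells, 388 to 527 in parental cells). Without Cd68, their brightest member, the blood cell markers gave 190 to 195 in KO cells and 234 to 290 in parental cells. The largest falls among the 18 were those of Cd3e (-1.77) and Cd79a (-1.26). Their median difference was -0.135, with 13 negative and 5 positive. The part of such cells in the differences was not tested.

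Genes of the germ line were another group of falls. Sohlh2 encodes a basic helix-loop-helix transcription factor of early germ cells, Ddx4 (also called Vasa) an RNA helicase of germ cells, Dazl an RNA-binding protein that controls translation in germ cells, and Syce1 a part of the synaptonemal complex that holds chromosomes together in meiosis. To show how far the start sites of the genes that fell differ in sequence, 4 promoter windows are given, those with the most and the fewest CG dinucleotides among the germline genes that fell and among the other genes that fell. They are from RefSeq on build GRCm38.p6, run from 250 bases before to 50 bases after the gene start, 5′ to 3′ on the gene's strand, and have CG dinucleotides in capitals. Of the germline genes, Ddx4 lies at chr13:112652261-112652560 on the minus strand (38 CG) and Tdrd12, a tudor protein gene, at chr7:35537666-35537965 on the minus strand (11 CG). Of the others, Camk2b, a kinase gene, lies at chr11:6065699-6065998 on the minus strand (51 CG) and Gm11543, a predicted gene with the second largest negative difference, at chr11:94829291-94829590 on the minus strand (1 CG).
Ddx4: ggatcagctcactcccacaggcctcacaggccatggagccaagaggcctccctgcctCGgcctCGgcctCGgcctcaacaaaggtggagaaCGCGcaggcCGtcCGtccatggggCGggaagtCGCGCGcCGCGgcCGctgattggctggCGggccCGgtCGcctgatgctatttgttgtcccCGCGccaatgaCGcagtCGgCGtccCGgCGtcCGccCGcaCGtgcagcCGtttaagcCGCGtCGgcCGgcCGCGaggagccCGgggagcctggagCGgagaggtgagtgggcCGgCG
Tdrd12: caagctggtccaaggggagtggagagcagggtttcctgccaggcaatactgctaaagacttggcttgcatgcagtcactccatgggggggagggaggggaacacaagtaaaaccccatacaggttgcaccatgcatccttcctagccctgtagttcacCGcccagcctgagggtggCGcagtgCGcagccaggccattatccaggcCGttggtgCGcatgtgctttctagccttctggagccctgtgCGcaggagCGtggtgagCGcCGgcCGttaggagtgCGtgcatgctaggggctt
Camk2b: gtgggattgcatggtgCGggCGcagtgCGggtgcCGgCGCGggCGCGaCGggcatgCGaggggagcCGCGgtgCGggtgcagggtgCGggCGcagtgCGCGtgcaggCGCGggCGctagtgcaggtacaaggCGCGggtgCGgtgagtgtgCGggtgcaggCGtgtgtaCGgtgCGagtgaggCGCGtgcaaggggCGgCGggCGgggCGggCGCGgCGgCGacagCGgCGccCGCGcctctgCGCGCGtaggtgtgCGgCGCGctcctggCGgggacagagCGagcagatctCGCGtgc
Gm11543: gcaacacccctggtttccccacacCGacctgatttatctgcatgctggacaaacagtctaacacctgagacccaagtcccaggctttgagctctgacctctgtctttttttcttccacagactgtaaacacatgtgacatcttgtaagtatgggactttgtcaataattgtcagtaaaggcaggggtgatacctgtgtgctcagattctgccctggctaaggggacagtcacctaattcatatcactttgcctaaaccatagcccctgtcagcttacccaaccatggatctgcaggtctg
Both kinds of gene thus span a wide range of CG content, and the window richest in CG belongs to a gene outside the germline list.

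The CG content of the genes that fell was near that of all genes. Of the 22180 genes, 16990 matched a RefSeq window by symbol, with a median of 13 CG per 300 bases (quartiles 4 and 24). The 38 lower genes with a window had a median of 13.5 CG. The 7 germline genes that fell had a median of 22 CG (range 11 to 38), the 31 other genes that fell a median of 11 (range 1 to 51), and the 37 germline genes that did not pass and had a window had a median of 17. The E-box CACGTG, a palindrome and so the same on both strands, was in 8.2% of all windows, in 36.4% of the germline list's windows and in 2 of the 7 windows of germline genes that fell. TCCCGC, searched on both strands, was in 25.9% of all windows and in 23.7% of the windows of lower genes. A match is a run of letters and not a bound site.

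Sohlh2 was among the best supported germline falls. Its levels were 5.62, 5.82 and 6.31 in KO cells and 8.36, 8.31 and 8.71 in parental cells. The groups lay far apart, and KO cells kept a signal above the median gene. The difference was -2.54 ± 0.24 (SE), a 5.82-fold lower signal (limma adjusted p = 0.000384). Ddx4 had levels of 4.25, 3.96 and 4.08 in KO cells and 5.60, 5.55 and 5.38 in parental cells. Its arrays were tight within each group, at 4.10 ± 0.15 in KO cells and 5.51 ± 0.12 in parental cells (SD, n = 3 each), and it fell by 1.41 on the log2 scale (limma adjusted p = 0.00203). Dazl had levels of 5.31, 5.02 and 5.49 in KO cells and 6.39, 6.70 and 6.78 in parental cells, without overlap (-1.35 ± 0.17, limma adjusted p = 0.00407). The calls of Sohlh2, Ddx4 and Dazl held without any 1 array. Syce1 levels were 4.05, 3.97 and 4.11 in KO cells and 5.14, 5.39 and 5.94 in parental cells, a wider spread in the parental group (-1.45 ± 0.21, limma adjusted p = 0.0111). That call was lost without KO 1 (0.0514), KO 2 (0.068) or parental 2 (0.0503).

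The other germline genes that fell did so by less than 2-fold. They were Tdrd12, a tudor protein of the piRNA pathway that silences transposons in germ cells (-0.93), Dmrtb1, a transcription factor of spermatogenesis (-0.84), and Slc25a31, the ADP/ATP carrier of germ cell mitochondria (-0.76). Tdrd12 lost its call with the replicate block (adjusted p = 0.0521) and without any 1 array, at 0.0803 to 0.2155. Dmrtb1 passed in 1 of the 6 fits that left out an array, the one without KO 1, and Slc25a31 in 1, the one without KO 3. Their values under the other omissions were 0.064 to 0.1107 for Dmrtb1 and 0.0803 to 0.1346 for Slc25a31. Of 53 measured germline and meiosis genes, 7 fell and 0 rose in limma's test, against 0.203% of all genes lower, with 15 lower and 5 higher at an unadjusted p under 0.05, against 3.94% and 3% of all genes. The list's differences lay on both sides of 0, with a median of 0.03 and 25 of the 53 negative. Rhox5, an X-linked homeobox gene of the reproductive tract, and Mael, a piRNA pathway protein, passed only with the block (Rhox5 -1.03, block-adjusted p = 0.0161; Mael -0.84, 0.0445). Nlrp14, an NLR family gene of germ cells (-0.99), and Scml2, a Polycomb protein of germ cells (-1.17), fell without being members of the list, and both calls were lost without each of the 6 arrays in turn. Their highest adjusted p in those fits were 0.153 for Nlrp14 and 0.142 for Scml2.

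**Figure D2:**
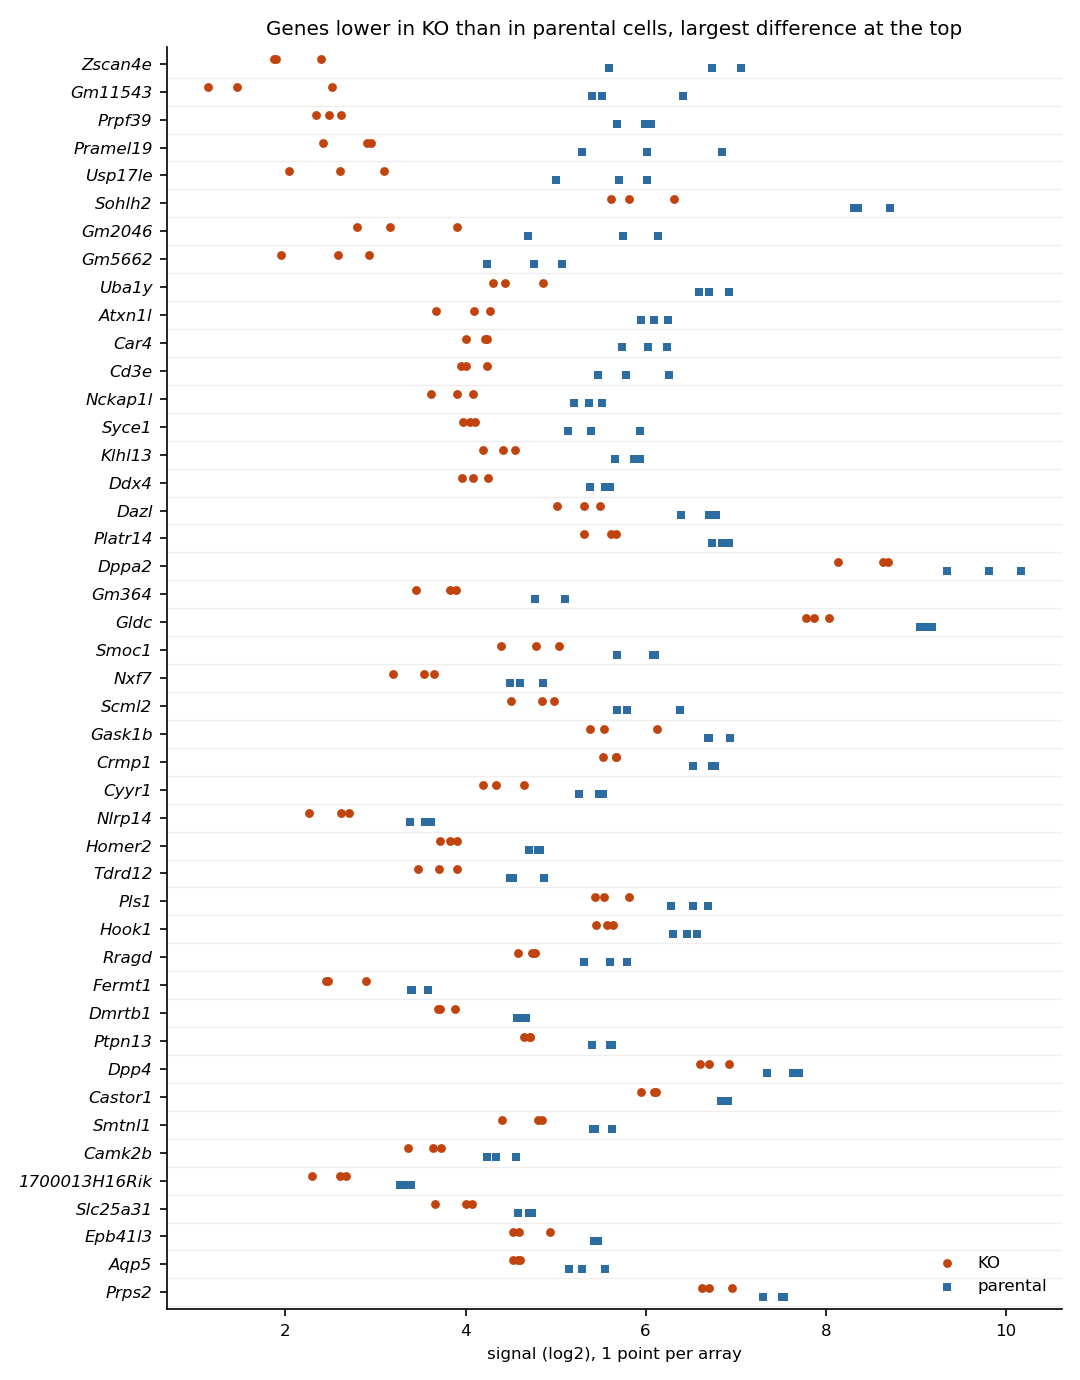
Log2 signal of each array for the genes that fell, ordered by size of difference, with round points for KO arrays and squares for parental arrays. In every gene shown the 3 KO points lie to the left of the 3 parental points, with the widest gap for Zscan4e.

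The smallest p of all genes belonged to a splicing factor gene. Prpf39, whose product is linked to the U1 small nuclear ribonucleoprotein that recognises 5′ splice sites, had levels of 2.34, 2.62 and 2.48 in KO cells and 5.68, 6.06 and 5.99 in parental cells. KO arrays lay close to the lower quartile of their signals (2.36 to 2.41), and no KO array came within 3 log2 units of a parental one. The difference was -3.43 ± 0.15 (SE; limma adjusted p = 1.49e-07), and the call held without any 1 array. On the same scale the level was 2.48 ± 0.14 in KO cells and 5.91 ± 0.20 in parental cells (SD, n = 3 each). The other 17 measured genes of the U1 and splicing factor list did not pass, and the list's median difference was -0.02. Next to Prpf39 on chromosome 12, Togaram1 differed by 0.45 ± 0.16 (adjusted p = 0.491; 0.0459 with the replicate block) and Fkbp3 by 0.04 ± 0.11.

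Several genes in neither the 2-cell-like nor the germline list also fell. Gm11543 had levels of 1.14, 2.52 and 1.46 in KO cells and 5.40, 6.41 and 5.52 in parental cells. The difference was -4.07 ± 0.48 (limma adjusted p = 0.00301), with a KO signal that, like that of Zscan4e, lay too low to be set apart from background. Uba1y, the Y-linked copy of the ubiquitin-activating enzyme E1, had levels of 4.31, 4.44 and 4.86 in KO cells and 6.70, 6.92 and 6.59 in parental cells. It fell by 2.20 on the log2 scale (adjusted p = 0.000384), while the neighbouring Y-linked gene Kdm5d, a histone H3 lysine demethylase, differed by -0.73 and did not pass (adjusted p = 0.185). Atxn1l, a paralogue of ataxin 1, had levels of 4.27, 4.09 and 3.67 in KO cells and 6.09, 6.25 and 5.95 in parental cells. That 4.26-fold fall had an adjusted p of 3.46e-05. Car4, a membrane-anchored carbonic anhydrase, had levels of 4.00, 4.22 and 4.24 in KO cells and 5.74, 6.03 and 6.24 in parental cells. It was 3.61-fold lower in KO cells (adjusted p = 4.11e-05), and of the 14 measured carbonic anhydrases it was the 1 that passed without the block. At an unadjusted p under 0.05, 4 of the 14 were lower and 0 higher, against 3.94% and 3% of all genes. Car2 (-0.89) passed as well with the block (0.0289). The calls of Gm11543, Uba1y, Atxn1l and Car4 held without any 1 array.

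Genes usually read as blood cell genes fell in 2 cases, Cd3e and Nckap1l. Nckap1l lay outside the blood cell list and was grouped here after its value was seen. Cd3e, a chain of the T cell receptor complex, had levels of 3.95, 4.24 and 4.00 in KO cells and 5.47, 6.26 and 5.78 in parental cells, a 3.42-fold lower signal (limma adjusted p = 0.00589). Nckap1l, the blood cell subunit of the WAVE complex that drives actin branching, had levels of 3.62, 3.90 and 4.08 in KO cells and 5.20, 5.37 and 5.51 in parental cells. The groups were separate for both genes, Nckap1l was 2.82-fold lower (adjusted p = 0.000384), and both calls held without any 1 array. Cd3d, which adjoins Cd3e, differed by -0.18 (adjusted p = 0.983). Of 18 measured blood cell markers only Cd3e passed. At an unadjusted p under 0.05, 4 of the 18 were lower and 0 higher, against 3.94% and 3% of all genes. Cd79a, of the B cell receptor, differed by -1.26 without passing (adjusted p = 0.108).

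Metabolic and signalling genes made up part of the rest, grouped here by role after their values were seen. Gldc, the glycine decarboxylase of the mitochondrial glycine cleavage system and highly expressed in embryonic stem cells, had levels of 7.78, 8.03 and 7.87 in KO cells and 9.05, 9.18 and 9.11 in parental cells. It was 2.33-fold lower in KO cells (limma adjusted p = 0.00582) at a signal well above the median gene, and the call held without any 1 array. Rragd, a Rag GTPase that passes amino acid supply to mTORC1, differed by -0.87, and Castor1, an arginine sensor of the same pathway, by -0.82. Prps2, which makes the sugar phosphate for nucleotide synthesis, had the smallest fall, 0.68 on the log2 scale. Castor1 passed in none of the fits that left out an array, and Rragd and Prps2 passed in 1 each. Dpp4, a serine peptidase of the cell surface (-0.82), and Ptpn13, a tyrosine phosphatase (-0.84), also fell, and passed in 2 and 1 of those fits.

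Genes of the cytoskeleton, matrix and cell surface formed another part. Klhl13, an adaptor of the Cul3 ubiquitin ligase, was 2.70-fold lower in KO cells, with 4.19, 4.55 and 4.42 in KO cells and 5.87, 5.66 and 5.94 in parental cells. These arrays did not overlap and the call held without any 1 of them (adjusted p = 0.000747). Smoc1, a secreted matrix protein (-1.21), Pls1, an actin-bundling protein (-0.90), Hook1, a microtubule adaptor (-0.89), Fermt1, the integrin activator kindlin-1 (-0.86), Epb41l3, a membrane skeleton protein (-0.76), and Aqp5, a water channel (-0.76), fell by less. Aqp5 stands beside Aqp2 and Aqp6, which differed by -0.22 and -0.27 and did not pass. Genes named for nerve or muscle were Crmp1 (-1.05), Homer2, a scaffold of synapses (-0.96), Camk2b, a calcium-dependent kinase (-0.80), and Smtnl1 (-0.81). Of the genes in this paragraph other than Klhl13, those that passed without some array were Smoc1 and Pls1 in 2 fits of 6 each and Hook1, Fermt1 and Epb41l3 in 1 each, while Aqp5, Crmp1, Homer2, Camk2b and Smtnl1 passed in none.

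The lower genes not yet named were Platr14, a noncoding RNA associated with pluripotency (-1.30, limma adjusted p = 0.00459), Nxf7, of the nuclear RNA export factor family (-1.19, 0.00664), Gm364 (-1.26, 0.0111), Gask1b (-1.10, 0.0259), Cyyr1 (-1.03, 0.0171) and 1700013H16Rik (-0.80, 0.0449). Platr14 and Nxf7 kept their calls without any 1 array. Gm364 lost its call without parental 1 (0.0546) or parental 2 (0.074). Cyyr1 passed in 2 of the 6 fits that left out an array, Gask1b in 1 and 1700013H16Rik in none. The second probe set of Cyyr1 differed by -0.25, and with the mean of its probe sets the adjusted p was 0.137.

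The nearest measured neighbours of the genes that fell did not pass in limma's test. However, the lower genes Gm2046 and Gm5662 on chromosome 12 stood on either side of the same measured gene, Pramel51. Probe sets with several symbols were not counted among the neighbours. The 45 lower genes had 88 nearest measured neighbours in RefSeq order. Of these, 0 were lower and 0 higher in limma's test, where 0.203% and 0.0361% of all genes were. At shares this low, 0 calls among 88 genes says little about neighbours. At an unadjusted p under 0.05, 3 were lower and 2 higher, against 3.94% and 3% of all genes, and the median difference was -0.06. With the replicate block 0 of the 88 were lower and 1, Togaram1, was higher, against 0.437% and 0.18% of all genes. Chromosome X held 4.09% of the genes tested and 6 of the 45 lower genes (13.3%): Klhl13, Gm364, Nxf7, Scml2, 1700013H16Rik and Prps2. With the block it held 10 of the 97 lower genes (10.3%), and the median difference of its 899 genes was -0.01. Chromosome 7 also held 6 lower genes, with 8.86% of the genes tested. Of 10 measured genes of X inactivation and of the Y chromosome Uba1y fell. At an unadjusted p under 0.05, 3 of the 10 were lower and 0 higher, against 3.94% and 3% of all genes. Xist, the RNA that silences an X chromosome in female cells, differed by -0.47 (adjusted p = 0.555).

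Higher signals in KO cells were few and small. 1700108F19Rik, for which no role is given here, had levels of 4.08, 4.43 and 5.03 in KO cells and 2.27, 2.40 and 3.33 in parental cells. The same-numbered arrays differed by 1.81, 2.03 and 1.70, and the difference was 1.84 ± 0.29 (SE; limma adjusted p = 0.0211). The parental levels of 2.27 and 2.40 lay near the lower quartiles of those arrays (2.415 and 2.363), so no fold is given. Xpot, the exporter of transfer RNA from the nucleus, had levels of 8.62, 8.55 and 8.61 in KO cells and 7.85, 7.87 and 7.98 in parental cells. Its KO arrays lay closer together than those of the other genes that rose, and it was 1.62-fold higher (adjusted p = 0.0111). B230217C12Rik was higher by 1.07, Sult4a1, of the sulfotransferase family, by 0.81, Ccdc38 by 0.77, Sdr39u1 by 0.77, Sh3bgrl by 0.72 and the zinc finger gene Zfp40 by 0.64 on the log2 scale. The 6 had adjusted p of 0.0236 to 0.0467. None of the 8 calls held in every fit that left out an array: 1700108F19Rik was lost without KO 2 (0.0803), KO 3 (0.0679), parental 1 (0.0885) or parental 2 (0.1205), Xpot without KO 1 (0.058), KO 2 (0.0577), parental 1 (0.0615) or parental 2 (0.0774), and B230217C12Rik, Sdr39u1 and Zfp40 without each of the 6.

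**Figure D3:**
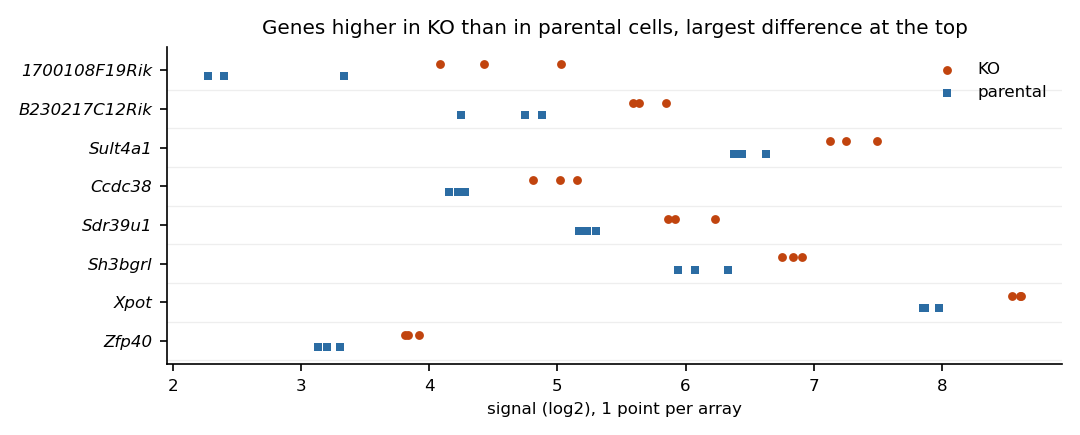
Log2 signal of each array for the 8 genes that rose, with KO and parental arrays as separate points. The groups are separate in every gene, and the KO arrays lie closest together for Xpot.

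Pairing the arrays by replicate number brought in genes whose level moved from number to number in both groups together. Passing only with the block favours genes with like paired differences, so that likeness is no separate support. Grb10, an imprinted gene for an adaptor that restrains insulin and growth factor signalling, had levels of 7.58, 7.57 and 6.16 in KO cells and 5.27, 5.34 and 4.53 in parental cells. Number 3 was the lowest in both groups, and the paired differences were 2.32, 2.24 and 1.63 (difference 2.06 ± 0.46 (SE) without the block). Its limma adjusted p was 0.13 without and 0.000236 with the block. H2ac1, a histone H2A gene of the testis type, had levels of 4.55, 4.97 and 6.35 in KO cells and 7.11, 7.15 and 8.96 in parental cells. Here number 3 was the highest in both groups, and the paired differences were -2.56, -2.18 and -2.61 (adjusted p = 0.0931 without and 0.004 with the block). Pdgfra, the platelet-derived growth factor receptor that marks primitive endoderm, had levels of 5.95, 7.12 and 7.01 in KO cells and 7.16, 8.26 and 8.38 in parental cells. The groups were barely separate, yet the same-numbered arrays differed by a like amount each time, -1.22, -1.14 and -1.36 (adjusted p = 0.418 without and 0.00091 with the block). Fitted on the 6 arrays alone, the block left 18 lower and 2 higher genes, a setting chosen after seeing the data.

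**Figure D4:**
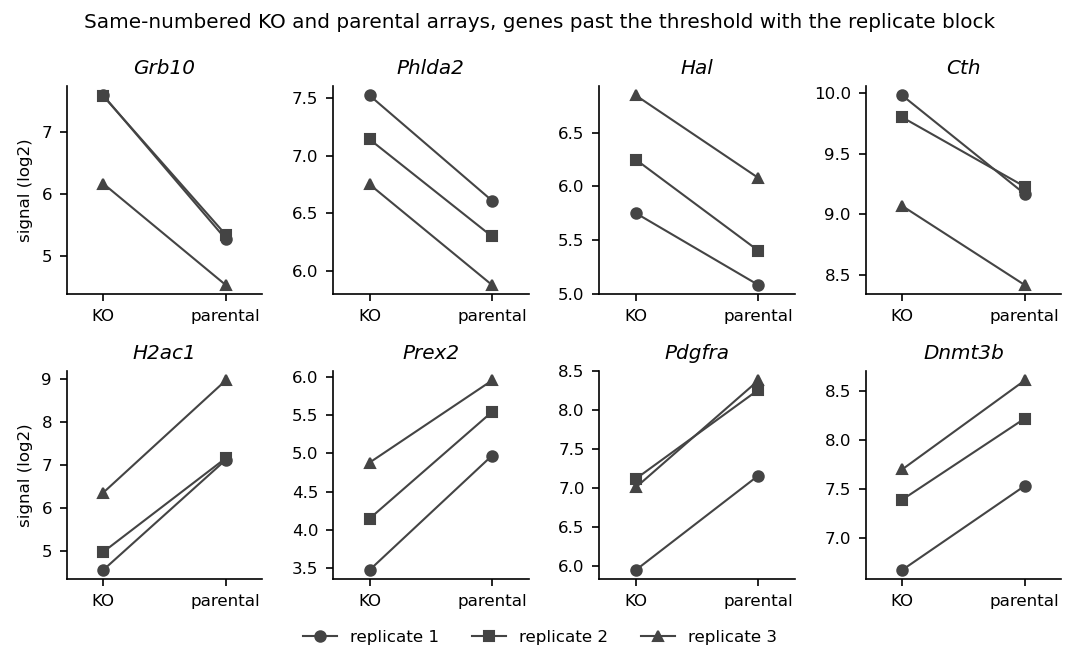
Log2 signals of genes that passed with the replicate block, 8 genes, with each line joining the KO array (left) and the parental array (right) of 1 replicate number. The 8 genes were picked for display. Lines run nearly parallel, as for H2ac1, where number 3 is highest in both groups. Passing only with the block favours such genes, so parallel lines follow largely from the selection.

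Of the genes that passed only with the block, 53 were lower and 32 higher in KO cells. Besides Pdgfra and H2ac1, the lower ones with the largest differences, leaving out predicted Gm and Rik genes, included Prex2, an exchange factor for Rac (-1.32), P3h2, a collagen prolyl hydroxylase (-1.11), Capn6, of the calpain family (-1.11), Trim52 (-1.08), Elmo1, a partner of Rac exchange factors (-1.02), Cyp4f39, of the cytochrome P450 family (-0.94), and F2, prothrombin (-0.91). Higher ones, chosen in the same way, were Zfp457 (1.10), Phlda2, an imprinted gene that limits placental growth (0.88), Atp1b2, a sodium pump subunit (0.87), Vax2, an eye homeobox gene (0.82), Cidea, a lipid droplet protein (0.82), Kcnh3, a potassium channel (0.77), Hal, histidine ammonia-lyase (0.77), Sting1, the sensor of cyclic dinucleotides (0.73), Elapor1 (0.71), Ngfr, the p75 neurotrophin receptor (0.67), Cth, which makes cysteine from cystathionine (0.67), and Pdgfrb (0.65).

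No gene of the naive pluripotency network passed. Of 28 measured naive pluripotency genes, 0 fell and 0 rose in limma's test with or without the block, with 2 lower and 2 higher at an unadjusted p under 0.05 and a median difference of 0.02. Klf4 and Tfcp2l1, transcription factors of the naive state, differed by 0.35 and 0.36, and Fbxo15, a long-used reporter gene of pluripotent cells, by -0.44 (adjusted p = 0.485, 0.542 and 0.28). The 28 genes of formative and primed pluripotency gave 0 calls in limma's test, with a median of -0.12. At an unadjusted p under 0.05, 6 of the 28 were lower and 0 higher, against 3.94% and 3% of all genes. With the block 2 of them were lower: Dnmt3b, a de novo DNA methyltransferase (-0.86, block-adjusted p = 0.00439), and Sfrp2, a secreted Wnt inhibitor (-0.76, 0.0279), whose other probe set differed by -0.21. Among 19 enzymes and readers of DNA methylation 0 passed without the block (2 lower and 1 higher at an unadjusted p under 0.05), and Dnmt3b and the chromatin remodeller Hells (-0.56, 0.0297) passed with it. Tet3, which oxidises methylcytosine, differed by 0.33 (adjusted p = 0.497).

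No gene of the Polycomb and trithorax, Hox or SUMO lists passed. The 32 Polycomb and trithorax genes gave 0 calls in limma's test with or without the block, 0 lower and 2 higher at an unadjusted p under 0.05, and a median difference of 0.02. The 36 Hox genes gave 0 calls with or without the block, 1 lower and 2 higher at an unadjusted p under 0.05, and a median of -0.01. The 28 measured genes of the SUMO pathway and of linked silencing complexes gave 0 calls with or without the block, and 0 in either direction at an unadjusted p under 0.05, with a median of -0.01. For scale, an unadjusted p under 0.05 was reached by 873 lower and 666 higher genes of all 22180.

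Among the lineage lists, primitive endoderm genes were mostly lower in KO cells without passing singly. Of 24 primitive endoderm genes 0 passed in limma's test, 10 were lower and 0 higher at an unadjusted p under 0.05, and 22 of the 24 differences were negative (median -0.33). Over all genes 3.94% were lower and 3% higher at that unadjusted p, and 49.8% of differences were negative. With the block 1 of the 24 was lower, Pdgfra. Dab2, an endocytic adaptor of the endoderm, differed by -1.28 (adjusted p = 0.453), Sox7, an endoderm transcription factor, by -0.77 (0.197) and Srgn by -0.59 (0.14). Among 27 basement membrane genes Smoc1 fell, 7 were lower and 0 higher at an unadjusted p under 0.05, and with the block Lama1, the laminin chain of the first basement membranes, was lower as well (-0.73, 0.0227). Lamb1, another chain of the same laminin, differed by -0.76 (adjusted p = 0.0914). The trophectoderm list (21 genes, median -0.145) and the fibroblast list (22 genes, median -0.15) gave 0 calls in limma's test, with 3 and 2 lower and 1 and 1 higher genes at an unadjusted p under 0.05. With the block Peg10, an imprinted gene of the placenta (-0.55, 0.0427), Vim, the intermediate filament vimentin (-0.45, 0.0387), and Pdgfrb (0.65, 0.0331) passed. Mesoderm (23 genes, median -0.11) and neuroectoderm (22 genes, median -0.05) gave 0 calls with or without the block, with 0 and 3 lower and 1 and 0 higher genes at an unadjusted p under 0.05.

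**Figure D5:**
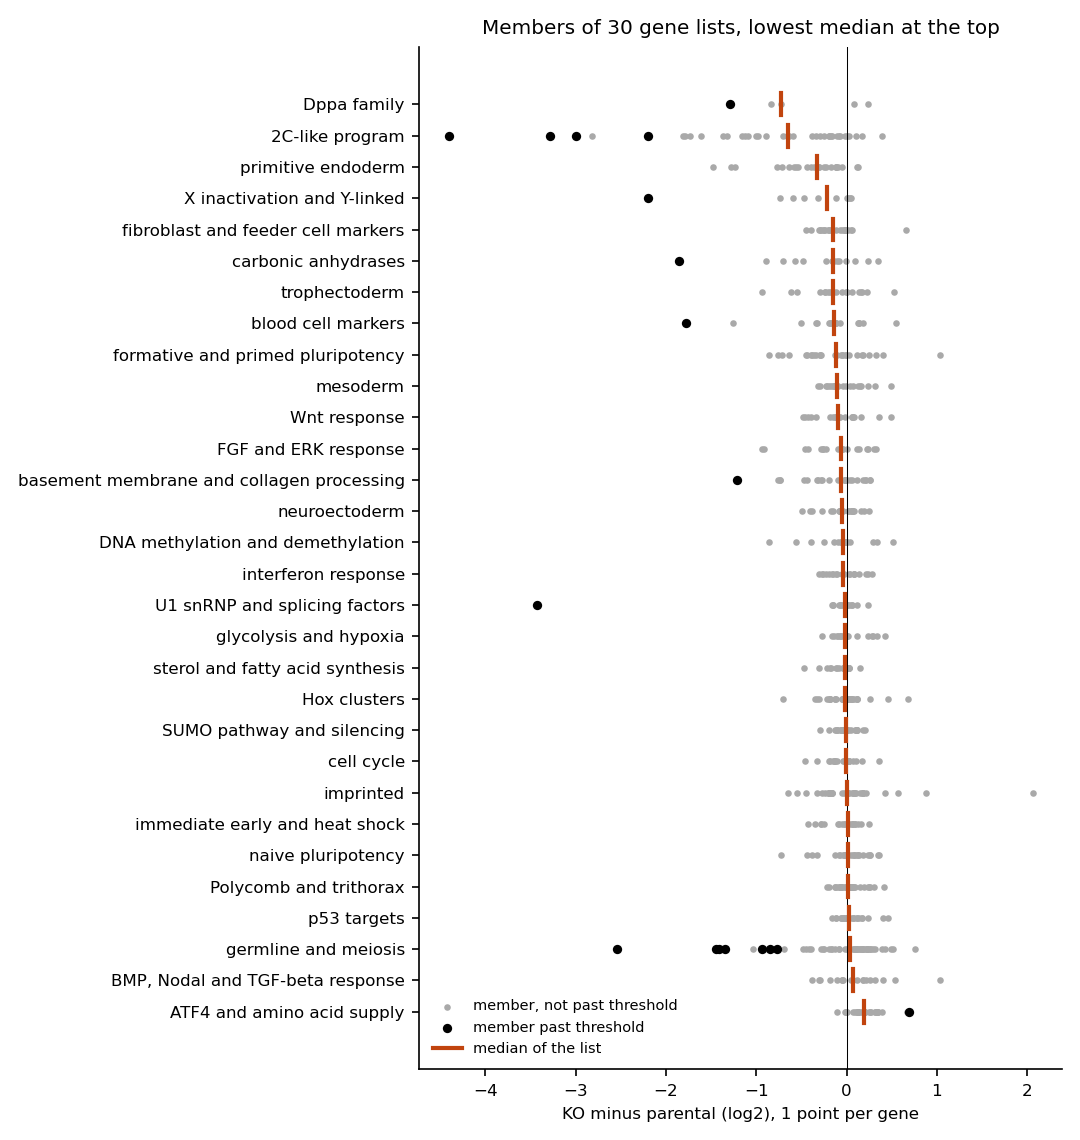
Log2 differences, KO minus parental, of the measured members of each gene list, 1 point a gene and 1 line a list, with the list's median marked. The 2-cell-like list has the lowest median among those with more than 5 members (-0.65), followed by primitive endoderm (-0.33), while most lists centre near 0.

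Signalling and stress lists held few calls. In the FGF and ERK list 0 of 19 genes passed without the block (2 lower and 0 higher at an unadjusted p under 0.05), and Dusp4, a phosphatase that ends ERK signalling, was lower with it (-0.91, 0.00909). The imprinted list (38 genes, median 0.01) gave 0 calls without the block, 3 lower and 3 higher at an unadjusted p under 0.05, and 1 lower and 2 higher with it. The ATF4 and amino acid list had the opposite lean, with 4 of 33 differences negative and a median of 0.19. In it 1 gene, Xpot, rose, Cth rose as well with the block (0.0237), and the counts at an unadjusted p under 0.05 were 0 lower and 2 higher. Responses to Wnt (20 genes), to BMP, Nodal and TGF-beta (19), to p53 (24) and to interferon (21), and the heat shock (21), sterol (22), cell cycle (23) and glycolysis (18) lists, gave 0 calls in limma's test with or without the block, and between 0 and 2 genes in either direction at an unadjusted p under 0.05.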

How the data were processed

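RNA of 12 samples was hybridised to Affymetrix arrays after labelling with the WT Plus kit, per the labels' protocols. What the authors deposited is a normalized log2 signal for each probe set on each array. Their software, per the submitters' processing notes, was the Transcriptome Analysis Console. The sources used here do not give its version, how it corrected background and summarized probes, or the build. Compression of low signals in those steps would understate large falls. The log2 scale was inferred from the range of values. GEO's platform annotation gave 1 gene symbol to 23521 of 41345 probe sets, several to 1814 and none to 16010. The probe set with the highest mean over the 12 arrays stood for each of 22180 genes, 1082 of which had several. Lower quartiles of the arrays were 2.36 to 2.47 and medians 3.73 to 3.88, and no 2 arrays held identical values. No detection call was used, so low signals cannot be set apart from background.

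Genes were tested with the lmFit and eBayes functions of limma (version 3.58.1, R 4.3.3), with 1 mean for each of the 4 groups, the contrast KO minus parental and Benjamini-Hochberg adjustment over all genes at 0.05. This main fit did not pair the arrays. Replicate numbers were treated as pairs in the block settings alone, because every same-numbered pair correlated above 0.1. Other settings tried were a block for the replicate number, the 6 arrays alone, repeated quantile normalization, median centring, leaving out low signals, trend and robust variances, array weights, the mean of probe sets, a 2-fold limit, leaving out each array and, added after seeing the data, a fit of all probe sets.

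Genes named were Dppa2 and Dppa4, those past the threshold, the 12 lower and 12 higher ones with the largest differences past it only with the block (leaving out predicted Gm and Rik genes, olfactory and vomeronasal receptors and small RNA genes), and in each of 30 gene lists those past it and up to 4 with the smallest p. Duxf3 was named as well, because Dux was described in the background. Of 801 list entries 725 were measured. Members and lists were chosen with earlier results of these data known, so no list is independent support. Promoter windows and gene order came from RefSeq tables of GRCm38.p6, matched by symbol.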

Additional observations from a re-analysis of the deposited data

Results flagged for a closer look

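Probe sets that the annotation pairs with no gene were tested apart, in 1 fit of all 41345 probe sets. Of the 16010 without a symbol, 3 were lower and 2 were higher in KO cells (limma, Benjamini-Hochberg adjusted p under 0.05). The 3 lower ones differed by -1.39, -0.96 and -0.94 on the log2 scale. The 2 higher ones held the same values on every array, 4.74, 4.91 and 5.09 in KO cells and 3.56, 3.60 and 3.46 in parental cells (difference 1.37, adjusted p = 0.031), and so count as 1 signal. Of the 1814 probe sets with several symbols 5 were lower and 0 higher, and the largest of these differences was -4.15. A pair of the 5 held the same values on every array, which leaves 4 signals. In the same fit 19 lower and 2 higher probe sets passed among the 23521 with 1 symbol, against 45 and 8 genes when 1 probe set a gene was fitted.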

How the results depend on the processing

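Against 45 lower and 8 higher genes, the replicate block gave 97 and 40, array weights 113 and 26, the 6 arrays alone 26 and 1, a 2-fold limit 27 and 2, and the 6 arrays alone with the replicate block, a setting chosen after seeing the data, 18 and 2. Fitting all 41345 probe sets together, also chosen after seeing the data, left 19 and 1 of these genes. Leaving out 1 array gave 18 to 29 lower and 0 to 3 higher genes. Repeated quantile normalization (43 and 6), median centring (35 and 8), leaving out low signals (49 and 10), trend and robust variances (44 and 9) and the mean of the probe sets (43 and 9) stayed within 1.5 times. With array weights the calls included all 45 and all 8 of the main counts, and with the 6 arrays alone 23 and 0 of them. No called difference among the genes named changed sign under these settings. The cause of these shifts was not tested. Only 3 arrays a group, log2 signals without detection calls and near-copy gene families limit what single values can carry.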
